A study of Mus musculus with 54 samples.

Results

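Whole livers of mice in which the silenced clock gene Bmal1 is restored in the brain's master clock were compared with livers of mice that have it everywhere, at lights on (zeitgeber time 0, ZT0). The comparison takes the 3 RE livers and the 3 WT livers labelled ZT0, which are 6 of the 54 RNA sequencing libraries of a mouse liver series sampled at 6 times, 4 h apart. WT animals express Bmal1 (listed as Arntl) in all tissues. KO animals carry a floxed STOP that silences Bmal1 throughout the body, and RE animals carry the same floxed STOP together with Syt10-Cre, which restores Bmal1 in the suprachiasmatic nucleus. RE and KO livers therefore share the silenced allele and differ in the Cre driver and the brain rescue. The labels do not say where else in the body Syt10-Cre acts, how old the animals were, or how they were fed and lit. The labels call the livers separate samples and do not name litters or batches, so p-values measure the spread between samples of a group. Unless stated otherwise, that spread is a shared estimate for each gene over all 54 libraries, KO livers and the other times included. Expression is given as FPKM (fragments per kilobase of transcript, scaled to the number of mapped fragments) as deposited by the authors, and differences as RE minus WT in log2(FPKM + 1), with a standard error (SE) from limma. A gene is called higher or lower where its Benjamini-Hochberg adjusted p was under 0.05 over all 10932 genes tested. The livers of a group are numbered 0, 1 and 2 and are always given in that order.

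The clock inside each cell is a loop of transcription factors. BMAL1 pairs with CLOCK or NPAS2, binds E-box sequences, and activates the period and cryptochrome genes, whose proteins then inhibit it. The same pair drives the REV-ERB receptors, which repress Bmal1 through ROR elements, and the PAR bZIP factors, which act through D-boxes. The suprachiasmatic nucleus, at the base of the hypothalamus, receives light from the retina and times feeding, hormones and body temperature, and the liver receives those signals whether or not its own loop runs. The question of the comparison is what the liver still lacks at lights on when the brain clock alone is present.

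Several properties of these 6 libraries touch the results below. The summed FPKM of a liver ran from 643905 to 740137, and between 14654 and 15383 genes were above 0. The values hold no read counts, so sequencing depth is unknown. Hepatocyte genes led in every liver, with Apoa1, the main protein of high density lipoprotein, at 13699.5 to 17408 FPKM in WT and 12441 to 17075 in RE. Transcripts of the Y chromosome were found in all 6 livers, with Ddx3y at 6.65 to 11.3 FPKM in WT and 6.81 to 12.0 in RE. Albumin (Alb) is listed at 0 in all 3 WT livers and at 14266, 12548 and 17903 FPKM in the RE livers. It is 1 of 43 tested genes that are listed at 0 in some libraries and above 5 FPKM in all others, a pattern that can come from a failed estimate, so none of these genes gets a difference here. Among them, Alb alone is within the count of called genes. Bmal1 itself, at chr7:113178471-113314126 (mm10), measured 10.3, 9.57 and 9.25 FPKM in the WT livers, 15.5, 13.1 and 13.7 in the RE livers and 13.5, 13.3 and 12.6 in the KO livers. Values summed over the whole gene do not show whether a STOP is present, so they check nothing about the allele.

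WT liver 0 held transcripts of the gut. Of 40 gut epithelium genes, 32 had a median under 1 FPKM over the 54 livers. Their summed level was 445 FPKM in WT liver 0, 37.2 in WT liver 1 and 22.9 in WT liver 2, against 2.55, 1.75 and 6.47 in the RE livers. In the 51 libraries outside the WT group at ZT0 the sum ran from 1.06 to 16.5 FPKM, so that all 3 WT livers at ZT0 were above every one of them. The genes of red blood cells had a summed level of 5493, 1429 and 3458 FPKM in the WT livers and 619, 847 and 739 in the RE livers, beside 334 to 4610 in the 51 other libraries, a range that holds WT livers 1 and 2. Of 6 tested red cell genes 3 were called lower with all livers, beside 4.82% of all tested genes. By limma 0 were called without WT liver 0 and 0 without WT liver 2, with 3 and 4 under 0.05 unadjusted. Of the 40 gut genes, 28 reached the floor for testing, a mean of 1 FPKM in at least 1 of the 18 groups, and 18 of the 28 reached it in WT at ZT0 alone. All 18 were among the 22 called lower in RE, which the floor largely fixed, so the 22 are no support for a difference. Of the 10 gut genes that reached the floor in another group, 4 were called lower. A whole-tissue level cannot tell fewer cells of a type from less RNA per cell, here or in any result below.

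**Figure D1:**
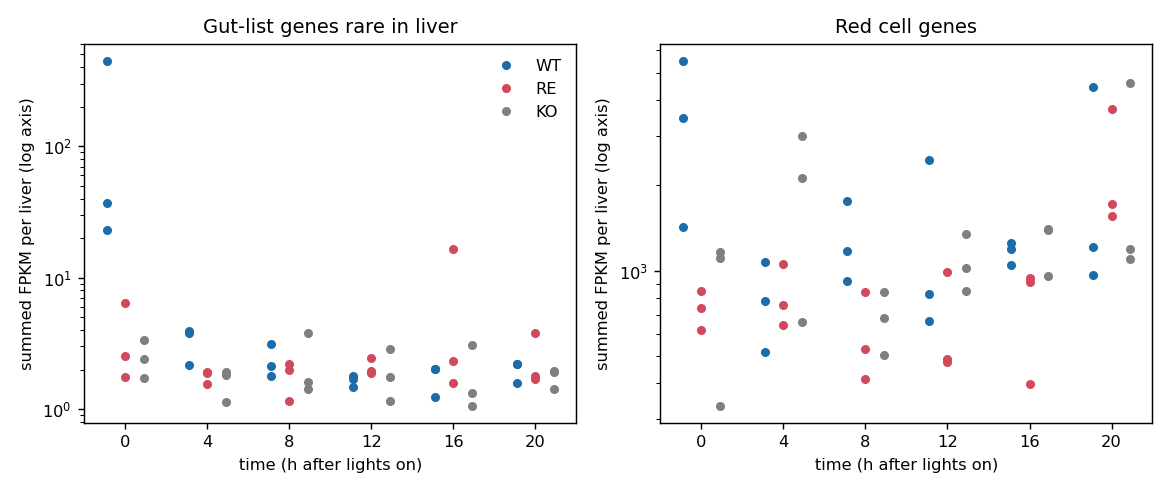
Summed FPKM per liver (log axis) of the 32 gut genes that are rare in liver (left) and of the red cell genes (right), for each of the 54 livers against time, with genotypes set side by side at each time. WT liver 0 at ZT0 is the highest point in both panels, at 445 FPKM for the gut genes and 5493 FPKM for the red cell genes.

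At lights on, RE livers differed from WT livers in 1026 of 10932 tested genes (9.39%) by limma, of which 527 were lower (4.82%) and 499 higher (4.56%). The median difference was -0.68 among genes called lower and 0.57 among those called higher, beside 0.00374 over all tested genes. Differences of at least 1 on the log2 scale were called in 137 genes on the lower side (1.25%) and 104 on the higher side (0.951%). In 486 of the genes called lower all 3 RE values were below all 3 WT values, and in 468 of those called higher all were above. The same separation was seen in 11.5% of all tested genes on the lower side and 11.1% on the higher side. RE livers varied more among themselves than WT livers, with a median SD per gene of 0.202 against 0.137 (log2). Without WT liver 0 the counts were 367 lower and 398 higher, with the floor for testing left as it was. In 48 of the 527 genes called lower, WT liver 0 was at least 4 times both other WT livers. Of those 48, 27 were still called without it. Without RE liver 1, 351 genes were called lower, and without WT liver 2, 318 were called higher. With the spread taken from these 6 livers alone, 124 genes were called lower and 119 higher.

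**Figure D2:**
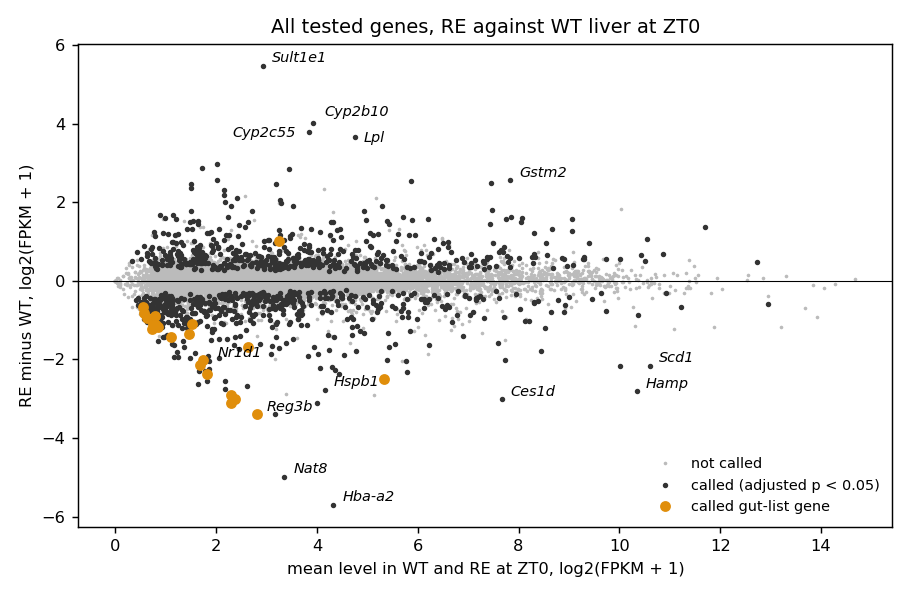
Each point is a tested gene, with its mean level in the WT and RE livers at ZT0 on the horizontal axis and RE minus WT on the vertical axis, both as log2(FPKM + 1); genes with doubtful values of 0 are left out. Dark points are called, large orange points are called gut genes, and genes from Nat8 at -4.98 to Sult1e1 at 5.47 are labelled.

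Among 18 core clock genes, 7 were called higher and 2 lower in RE livers at ZT0, beside 4.56% and 4.82% of all tested genes. The median difference was 0.49 among 3 activators, 0.71 among 8 repressors, -1.09 among the 3 nuclear receptors and 0.65 among the 3 PAR bZIP factors with Nfil3. Of the activators, Npas2, a partner of BMAL1 that can replace CLOCK, measured 3.25, 2.49 and 2.22 FPKM in WT and 8.30, 12.4 and 5.44 in RE. Every RE liver was above every WT liver, and Npas2 rose by 1.36 ± 0.23 (SE; adjusted p = 8.29e-05). Bmal1 was also higher in each RE liver than in any WT liver, but its difference of 0.49 ± 0.17 was not called (adjusted p = 0.0648). Clock differed by 0.05 ± 0.18 (adjusted p = 0.901), with overlapping groups.

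The repressors that were called were all higher in RE. Cry2, whose protein blocks BMAL1 and CLOCK, was at 8.25, 5.86 and 5.65 FPKM in WT and 12.4, 17.0 and 15.6 in RE, a rise of 1.08 ± 0.15 (adjusted p = 1.36e-06). Cry1, the other cryptochrome, was at 14.8, 6.11 and 9.08 in WT and 24.6, 27.8 and 19.5 in RE, a rise of 1.25 ± 0.22 (adjusted p = 0.0001). Neither gene's groups overlapped. Per2, a period gene, was at 1.498, 0.942 and 1.58 in WT and 6.77, 6.02 and 2.10 in RE, with RE liver 2 close to the WT range, and rose by 1.25 ± 0.29 (adjusted p = 0.00316). Per3 was low in all livers, at 0.332, 0.163 and 0.228 in WT and 0.967, 0.582 and 1.22 in RE, and rose by 0.62 ± 0.14 (adjusted p = 0.00214). Per1, at 0.568, 0.380 and 0.518 in WT and 1.07, 1.63 and 1.28 in RE, differed by 0.64 ± 0.36 and was not called (adjusted p = 0.293), although its groups did not overlap. Bhlhe40, a further repressor that binds E-boxes, was not called at 0.79 ± 0.28 (adjusted p = 0.0663); WT liver 0, at 27.7 FPKM, was apart from the other WT livers at 11.04 and 10.9, and without it the gene was called at 1.21 (adjusted p = 0.00429). Ciart, at 0.19, and Bhlhe41, at -0.04, both stayed under 1 FPKM in all 6 livers and were not called.

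Among the nuclear receptors of the loop, both REV-ERB genes fell. Nr1d1, which encodes REV-ERB alpha, was at 4.08, 9.99 and 5.47 FPKM in WT and 0.526, 0.705 and 1.01 in RE. It fell by 2.04 ± 0.23 (adjusted p = 3.44e-08), and the lowest WT liver was above the highest RE liver. Nr1d2, which encodes REV-ERB beta, was at 1.96, 3.75 and 2.59 in WT and 0.508, 0.569 and 1.23 in RE and fell by 1.09 ± 0.22 (adjusted p = 0.000809). Rora, an activator that competes with the REV-ERBs for the same DNA element, differed by -0.07 ± 0.17 and was not called (adjusted p = 0.864).

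Of the D-box factors, Tef and Dbp were called higher in RE livers at this hour. Tef was at 8.02, 6.40 and 6.84 FPKM in WT and 19.8, 17.6 and 20.8 in RE, without overlap, and rose by 1.34 ± 0.16 (adjusted p = 8.07e-08). Dbp was at 0.539, 0.603 and 0.508 in WT and 2.33, 1.53 and 2.38 in RE and rose by 0.98 ± 0.27 (adjusted p = 0.0139). Hlf, the third PAR bZIP factor, differed by 0.32 ± 0.15 and was not called (adjusted p = 0.189). Nfil3, which represses through the same D-boxes, was at 31.7, 35.4 and 30.6 in WT and 17.4, 16.9 and 20.9 in RE. The groups did not overlap, but the difference of -0.80 ± 0.27 missed the threshold (adjusted p = 0.056). By limma Nfil3 was called with the spread taken from the 6 livers alone (adjusted p = 0.0287) and with quantile normalization. The 9 calls among the 18 genes held on leaving out any 1 of the 6 livers, and those for Npas2, Cry1, Per2, Per3 and Nr1d2 were lost with the spread taken from the 6 livers alone.

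**Figure D3:**
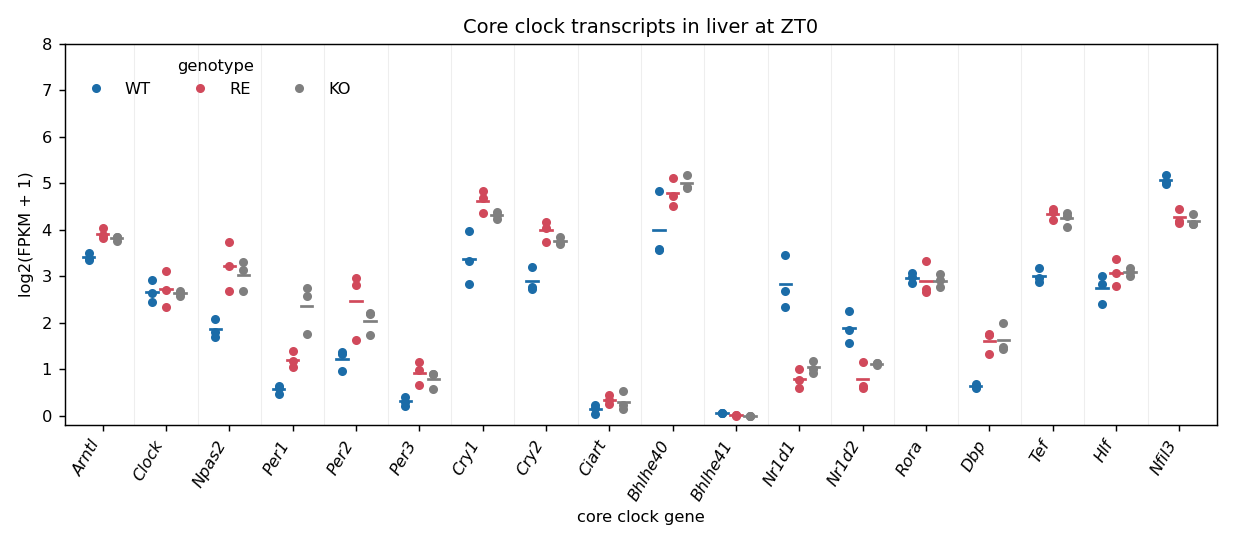
Levels of 18 core clock genes at ZT0 in log2(FPKM + 1), with a point for each of the 3 livers of WT, RE and KO and a bar for the group mean. Nr1d1 and Nr1d2 sit lower in RE than in WT, while Tef and Cry2 sit higher in RE, and the widest gap between the RE and KO means is that of Per1.

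Exact matches to DNA elements of the loop, which describe the sequence and not its use, were found for Arntl, Per1, Ciart, Bhlhe41 and 4 more genes. The promoters of those 4 are shown as examples. They were taken from RefSeq (GRCm38.p6, the assembly of mm10) as the 250 bases before the start site, 5′ to 3′ on the gene's strand. Capitals mark each exact match, on either strand, to the E-box CACGTG, the D-box TTATGTAA or TTACGTAA, or the ROR element TAGGTCA or TGGGTCA. Per3 (chr4:151044666-151044915, minus strand) holds D-boxes starting 205 and 158 bases before the start. Cry1 (chr10:85185055-85185304, minus strand) holds an E-box at 60 bases, and Tef (chr15:81802423-81802672, plus strand) holds one at 127 bases. Nfil3 (chr13:52981040-52981289, minus strand) holds a ROR element on the opposite strand at 12 bases.
Per3: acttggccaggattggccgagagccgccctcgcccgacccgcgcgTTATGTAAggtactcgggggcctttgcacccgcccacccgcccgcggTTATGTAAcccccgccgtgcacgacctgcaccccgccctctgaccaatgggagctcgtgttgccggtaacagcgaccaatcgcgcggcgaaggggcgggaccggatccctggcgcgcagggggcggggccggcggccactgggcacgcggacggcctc
Cry1: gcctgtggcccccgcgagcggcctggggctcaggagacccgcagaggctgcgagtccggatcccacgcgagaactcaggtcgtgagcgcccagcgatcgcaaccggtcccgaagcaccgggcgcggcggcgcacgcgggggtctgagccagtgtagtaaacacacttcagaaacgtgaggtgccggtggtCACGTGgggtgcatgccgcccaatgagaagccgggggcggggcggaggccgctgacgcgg
Tef: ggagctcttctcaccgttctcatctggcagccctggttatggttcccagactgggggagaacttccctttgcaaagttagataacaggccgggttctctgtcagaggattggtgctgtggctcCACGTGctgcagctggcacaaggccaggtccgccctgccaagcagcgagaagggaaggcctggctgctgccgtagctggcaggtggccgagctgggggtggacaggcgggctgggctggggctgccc
Nfil3: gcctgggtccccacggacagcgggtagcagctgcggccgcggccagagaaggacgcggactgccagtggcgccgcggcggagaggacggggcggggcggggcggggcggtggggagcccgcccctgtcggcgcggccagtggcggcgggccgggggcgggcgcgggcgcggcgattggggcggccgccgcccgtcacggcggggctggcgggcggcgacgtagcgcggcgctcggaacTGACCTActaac
The table of promoters had a window of 300 bases, 250 before and 50 after the start, for 16 of the 18 core clock genes. The E-box was in a window of 5 of the 16 (Per1, Cry1, Ciart, Bhlhe41 and Tef), against 7.15% of 32851 windows of all genes. The D-box was in Per3 alone, against 1.06% of all windows, and the ROR element in Arntl and Nfil3, against 6.45%. A core clock gene was counted if any of its windows held the element, and some had several windows. The percentages count single windows, so the measures are unlike. Of the genes with an E-box, Cry1 and Tef were called higher in RE, and Per1, Ciart and Bhlhe41 were not called at ZT0.

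The sign of several of these differences changed with the hour. In WT livers Dbp averaged 0.550 FPKM at ZT0, its lowest of the 6 times, and 74.9 at ZT8, while in RE livers it stayed between 1.06 and 2.08 all day. RE minus WT was 0.98 at ZT0 and averaged -2.55 over the other 5 times, and that contrast passed limma's test of the difference (adjusted p = 2.59e-11). Tef behaved alike, with 1.34 at ZT0 and -0.91 at the other times (adjusted p of the difference = 4.52e-12), as did Per3, with 0.62 and -1.35 (adjusted p = 4.52e-12). Nr1d2 was lower in RE at every time, but less so at ZT0 (-1.09 against -2.43, adjusted p = 0.000648). For Nr1d1 the difference at ZT0 was not shown to depart from the mean of the others (-2.04 against -2.37, adjusted p = 0.581). That mean covers unlike values, -4.67 at ZT4, -4.58 at ZT8, -2.32 at ZT12, -0.09 at ZT16 and -0.17 at ZT20. It therefore does not show a steady difference over the day. Over all genes the difference at ZT0 departed from the mean of the other 5 times in 294 genes (2.69%), 186 of them toward lower (1.7%) and 108 toward higher values (0.988%) in RE at ZT0. Without WT liver 0 the 186 became 115, and without WT liver 2 the 108 became 68. Of the 294, 128 were also called at ZT0 itself. In 75 of the 128 RE minus WT had opposite signs at ZT0 and over the other times. Any opposite sign was counted, however close to none the mean over the other times was. The 75 therefore include gut genes that were highest in WT liver 0, such as Prap1 (-3.11 at ZT0 against 0.0326) and Zg16 (-3.01 against 0.213). The part of gut genes and of WT liver 0 in the 75 was not tested.

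Some clock-driven genes that differed at other hours did not differ detectably at lights on; those named here were chosen after their values were seen. Elovl3, a fatty acid elongase, averaged 641 FPKM in WT at ZT0 and 49.2 at ZT12, while RE livers averaged 655 to 1029 FPKM over the day. At ZT0 the values were 729, 586 and 607 in WT and 948, 843 and 179 in RE, so RE liver 2 was far below the other 5. The difference was -0.28 ± 0.44 at ZT0 (adjusted p = 0.755) and 2.08 over the other times, and that departure was called (adjusted p = 0.00268). Without RE liver 2 the difference at ZT0 was 0.49 (adjusted p = 0.501). Clpx, a subunit of a mitochondrial protease, was at 102, 112 and 121 in WT and 140.2, 132 and 112 in RE at ZT0, a difference of 0.19 ± 0.15 against 1.90 at the other times (adjusted p of the departure = 3.39e-09). Insig2, which holds sterol regulators in the endoplasmic reticulum, gave 0.17 against 1.78 (adjusted p = 8.05e-05). In the opposite direction, Cyp2a5, a cytochrome that metabolises coumarin and nicotine, differed by -0.01 at ZT0 and -2.74 at other times (adjusted p = 0.000389), and Upp2, a uridine phosphorylase, by 0.39 and -2.09 (adjusted p = 0.000648).

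**Figure D4:**
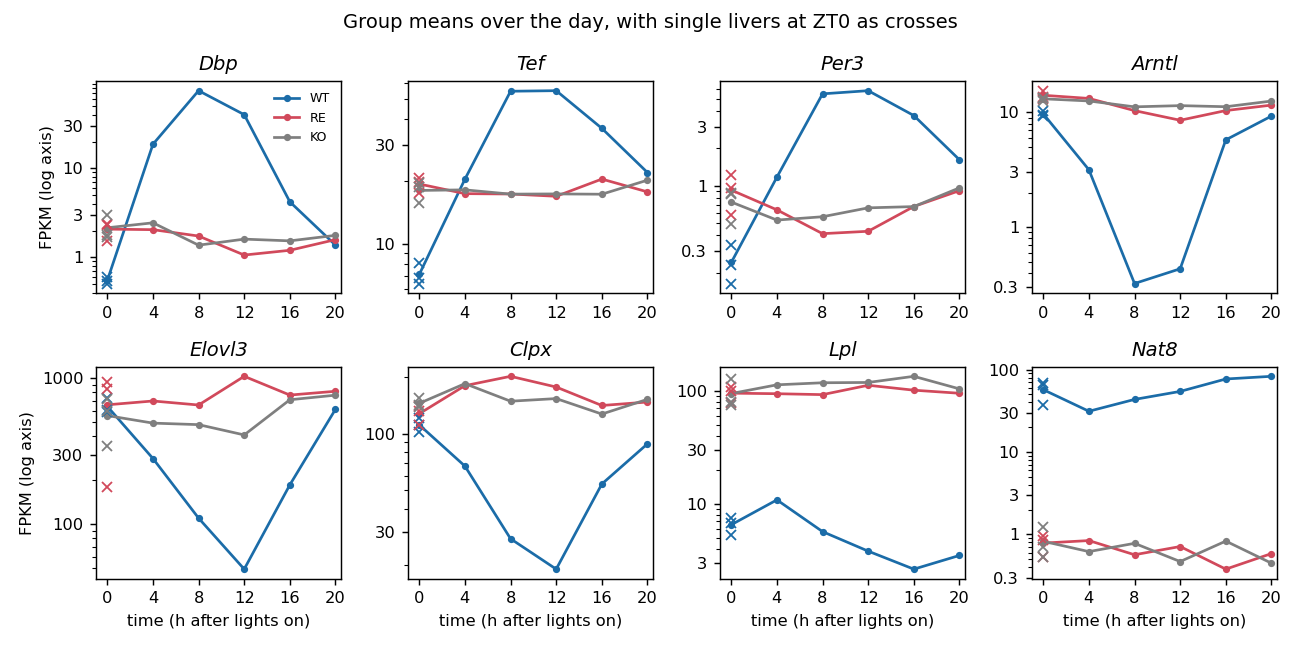
Group means in FPKM (log axes) of 8 genes over the 6 times for WT, RE and KO, with crosses for the single livers at ZT0. WT Dbp, Tef and Per3 lie under RE at ZT0 and above it from ZT4 to ZT16, WT Arntl, Elovl3 and Clpx come closest to RE at ZT0 or ZT20, and Lpl and Nat8 stay apart at all times.

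The genes furthest below WT, apart from gut and blood transcripts, included liver enzymes and the hormone hepcidin. Nat8, an N-acetyltransferase that makes mercapturic acids from glutathione conjugates, lies at chr6:85830387-85836857 (mm10). It measured 64.7, 69.3 and 37.4 FPKM in WT livers and 0.540, 0.859 and 0.961 in RE livers and fell by 4.98 ± 0.24 (adjusted p = 7.55e-19). Its value over the other 5 times was -5.11, and no departure at lights on was called (adjusted p = 0.871). Ces1d, a carboxylesterase of lipid droplets, was at 624, 559 and 546 in WT and 64.3, 64.6 and 83.3 in RE and fell by 3.02 ± 0.41 (adjusted p = 1.36e-06). Ugt1a9, which conjugates bilirubin-like and drug substrates, was at 40.6, 37.6 and 44.6 in WT and 1.48, 2.98 and 10.7 in RE and fell by 3.10 ± 0.47 (adjusted p = 1.06e-05). Both belong to families whose members share sequence, so reads may be split among them. Smim22, a small membrane protein, was at 35.7, 20.51 and 23.2 in WT and 1.22, 0.531 and 4.03 in RE and fell by 3.38 ± 0.37 (adjusted p = 1.2e-08). In none of these 4 genes did the groups overlap, and each call held without any single liver and with the 6 livers alone.

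Hamp and Hspb1 complete the named falls outside gut and blood. Hamp encodes hepcidin, the hormone that blocks iron export, and measured 2596, 3637 and 3389 FPKM in WT and 273, 359 and 948 in RE, with RE liver 2 the highest of the RE group. It fell by 2.81 ± 0.57 (adjusted p = 0.000789). Hspb1, a small heat shock protein, was at 60.8, 37.3 and 39.9 in WT and 5.74, 4.36 and 7.27 in RE and fell by 2.78 ± 0.34 (adjusted p = 1.3e-07). The other 6 of the 12 largest falls were Hba-a2, an alpha globin, and 5 gut genes, Reg3b, Prap1, Zg16, Rbp2 and Defa24. In each of the 5 gut genes WT liver 0 was highest, as in Reg3b, an antimicrobial lectin, at 70.6, 6.72 and 6.42 in WT and 0, 0.190 and 1.93 in RE. Reg3b fell by 3.40 ± 0.42 with all livers and was at -2.32 without WT liver 0, and Prap1 went from -3.11 to -1.82. Zg16 went from -3.01 to -1.70, Rbp2 from -3.0 to -1.70 and Defa24 from -2.90 to -1.70. All 5 were called with and without that liver and none with the spread of the 6 livers alone. Reg3b, Prap1, Rbp2 and Defa24 reached the floor for testing in WT at ZT0 alone. The call for Hba-a2 (-5.70, adjusted p = 0.0417) held with the spread of the 6 livers alone (adjusted p = 0.0325). It was lost with a pseudocount of 0.1, with no floor, and without any 1 liver other than RE liver 0 (adjusted p = 0.144 without WT liver 0).

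The same naming rule without WT liver 0, a repeat added after its gut transcripts had been seen, gave 12 falls of which Reg3b was the only gene of the gut list. Mme, a membrane peptidase also known as neprilysin, entered at 6.62, 5.53 and 8.37 FPKM in WT and 0.404, 0.146 and 0.205 in RE, and with all livers it fell by 2.64 ± 0.14 (adjusted p = 2.77e-17). Pltp, which transfers phospholipids to high density lipoprotein, was at 32.1, 43.2 and 70.4 in WT and 8.62, 5.20 and 11.9 in RE and fell by 2.36 ± 0.40 (adjusted p = 7.13e-05). Serpine2, a protease inhibitor, was at 10.7, 8.92 and 3.70 in WT and 0.501, 0.351 and 0.350 in RE and fell by 2.55 ± 0.26 (adjusted p = 1.86e-09). Ces1e, a further carboxylesterase, fell by 2.32 ± 0.26 (adjusted p = 2.77e-08). Fitm1, which helps form lipid droplets, completed the new entries, and Nat8, Smim22, Ugt1a9, Ces1d, Hamp and Hspb1 remained among the 12.

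Genes furthest above WT included several enzymes of drug and hormone metabolism. Alb, which meets the rule for the largest rises, is left out for its listed zeros. Sult1e1, which inactivates estrogens by sulfation, was listed at 0, 0.152 and 0.126 FPKM in WT and at 59.3, 71.0 and 24.8 in RE. It rose by 5.47 ± 0.79 (adjusted p = 5.18e-06), with every RE liver far above every WT liver. Cyp2b10, the classic target of the xenobiotic receptor CAR, lies at chr7:25897658-25926624 (mm10) and measured 3.24, 2.14 and 2.91 in WT and 45.7, 77.0 and 58.1 in RE, a rise of 4.00 ± 0.52 (adjusted p = 6.71e-07). Cyp2c55, which hydroxylates arachidonic acid, was at 2.50, 3.40 and 2.50 in WT and 68.8, 51.1 and 37.8 in RE and rose by 3.78 ± 0.37 (adjusted p = 7.93e-10). Members of the Cyp2c family share sequence, so its level is uncertain. Gstm2 and Gstm3, glutathione transferases of which the same holds, rose by 2.56 ± 0.22 (adjusted p = 3.58e-11) and 2.50 ± 0.30 (adjusted p = 1.39e-07).

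Lpl, the lipase that hydrolyses triglycerides of circulating lipoproteins, lies at chr8:68880555-68906932 (mm10) and is normally low in adult liver. It was at 5.35, 7.50 and 6.76 FPKM in WT and 107, 78.3 and 99.1 in RE and rose by 3.67 ± 0.27 (adjusted p = 6.28e-13). Genes of signalling and matrix followed. Ntrk2, a neurotrophin receptor, was at 0.272, 0.509 and 0.299 in WT and 14.8, 15.0 and 3.81 in RE and rose by 2.98 ± 0.38 (adjusted p = 4.83e-07). Grk5, a kinase of G protein coupled receptors, was at 3.21, 3.91 and 2.19 in WT and 31.0, 31.8 and 21.8 in RE and rose by 2.83 ± 0.26 (adjusted p = 1.11e-10). Tox2, a nuclear HMG-box protein, was at 0.308, 0.236 and 0.118 in WT and 8.44, 7.71 and 7.46 in RE and rose by 2.86 ± 0.22 (adjusted p = 8.3e-13). Slc34a2, a phosphate transporter, rose by 2.56 ± 0.44 (adjusted p = 8.96e-05) and Loxl4, an enzyme that crosslinks collagen, by 2.47 ± 0.19 (adjusted p = 1.21e-12). RE liver 2 was the lowest RE liver in Sult1e1, Cyp2c55, Ntrk2, Grk5, Tox2, Slc34a2, Gstm3 and Loxl4, though above all WT livers in each. Of these rises only that of Loxl4 departed from the mean over the other times, being smaller at ZT0 (2.47 against 3.26, adjusted p = 0.0241); the adjusted p of that departure was 0.323 or more for the others. All 11 calls held without any 1 liver, and that for Slc34a2 was lost with the spread of the 6 livers alone.

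Some genes of cholesterol synthesis rose and none was called lower. Of 25 tested genes of synthesis and uptake, 9 were called higher and none lower, beside 4.56% of all genes called higher, and the list's median was 0.90 beside 0.00374 over all genes. Lss, which closes the sterol rings as lanosterol synthase, was at 17.1, 17.0 and 11.4 FPKM in WT and 71.7, 35.2 and 61.5 in RE and rose by 1.79 ± 0.42 (adjusted p = 0.00394). Mvk, mevalonate kinase, was at 19.2, 19.02 and 13.4 in WT and 52.3, 36.8 and 71.7 in RE and rose by 1.55 ± 0.36 (adjusted p = 0.00366). In both, each RE liver was above every WT liver, and RE liver 1 was the lowest of its group. Hsd17b7 (1.12) and Msmo1 (1.61), which trim the sterol after lanosterol, were called, as were Hmgcs1 (1.60), Idi1 (1.58), Sqle (1.15), Dhcr7 (1.08) and the regulator Srebf2 (0.58). The 9 calls became 2 without RE liver 0, 12 without RE liver 1, 3 without RE liver 2, 5 without WT liver 0, 7 without WT liver 1 and 3 without WT liver 2. Those for Lss and Mvk held in each case, while the weakest of the other 7 reached adjusted p of 0.0637 to 0.200. For the 9 called genes the departure of ZT0 from the other times was not called, with adjusted p of 0.15 or more.

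Fatty acid synthesis and oxidation both had members called lower and, with all livers, none called higher. Of 28 genes of fatty acid and triglyceride synthesis 5 were called lower, beside 4.82% of all tested genes, with a list median of -0.24. Scd1, the desaturase that makes oleate, was at 3062, 3338 and 3209 FPKM in WT and 1026, 402 and 871 in RE and fell by 2.17 ± 0.49 (adjusted p = 0.00262). Me1, malic enzyme, which supplies NADPH, was at 124, 129 and 138 in WT and 52.6, 35.6 and 36.8 in RE and fell by 1.64 ± 0.39 (adjusted p = 0.00448). Pnpla3, a lipid droplet protein, fell by 1.40 ± 0.36 (adjusted p = 0.00904), Elovl5, an elongase of polyunsaturated fatty acids, by 1.02 ± 0.26 (adjusted p = 0.00698) and Pklr, liver pyruvate kinase, by 1.06 ± 0.35 (adjusted p = 0.0462). Acaca, which makes malonyl-CoA, was at 12.5, 14.5 and 12.6 in WT and 19.3, 13.2 and 14.2 in RE and was not called (0.21, adjusted p = 0.697). The calls for Elovl5 and Pklr were lost without RE liver 1, when 3 of the 5 remained, and that for Pklr also without RE liver 2 or any 1 of the WT livers, with an adjusted p of at most 0.231.

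Among 30 targets of PPAR alpha and genes of fat oxidation 5 were called lower and none higher, beside 4.82% and 4.56% of all tested genes, with a median of -0.35 and 27 of 30 differences below 0. Acaa1b, a peroxisomal thiolase, was at 628, 543 and 779 FPKM in WT and 145, 203 and 217 in RE and fell by 1.79 ± 0.38 (adjusted p = 0.00138). Fgf21, a fasting hormone secreted by the liver, was at 2.78, 3.87 and 4.29 in WT and 0.146, 0.277 and 0.162 in RE and fell by 1.95 ± 0.41 (adjusted p = 0.00121). Ucp2 (-1.12), Slc25a20 (-0.78), the carnitine carrier, and Acaa2 (-0.30) were the other members called. Cpt1a, the gate of mitochondrial oxidation, was at 39.4, 51.7 and 58.5 in WT and 36.3, 33.9 and 44.8 in RE and was not called (-0.36, adjusted p = 0.459). Without WT liver 2, 3 were called lower and 1 higher, without RE liver 1, 4 and 1, and without RE liver 2, 8 lower. The call for Slc25a20 was lost without WT liver 2 (adjusted p = 0.0672), and that for Acaa2 without any 1 liver other than RE liver 2 (adjusted p of at most 0.139).

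Some genes of amino acid breakdown rose and none was called lower. Of 39 genes of amino acid breakdown and the urea cycle 13 were called higher and none lower, beside 4.56% and 4.82% of all tested genes, with a median of 0.40 and 8 differences below 0. Oat, ornithine aminotransferase, was at 244, 335 and 342 FPKM in WT and 685, 1143 and 919 in RE and rose by 1.56 ± 0.30 (adjusted p = 0.000495). Bhmt, which remethylates homocysteine, was at 1911, 1971 and 2343 in WT and 5830.0, 5012 and 5091 in RE and rose by 1.36 ± 0.29 (adjusted p = 0.00125). In both genes every RE liver was above every WT liver. The difference was larger at ZT0 than at the other times for Gpt, alanine aminotransferase (0.73 against 0.14, adjusted p = 0.0474), and for Aldh4a1, of proline breakdown (0.46 against -0.10, adjusted p = 0.00827). Slc25a15, the ornithine carrier of the urea cycle, rose by 0.69 ± 0.14 (adjusted p = 0.000478) and Cps1, its first enzyme, by 0.55 ± 0.18 (adjusted p = 0.039). Hgd, Hpd and Fah of tyrosine breakdown, Cbs, Kynu, Got1 and Bckdhb were the remaining called members, with differences from 0.40 to 0.97. Without RE liver 2, 8 were called. The call for Cps1 was lost without any 1 liver other than RE liver 1 (adjusted p of at most 0.142), that for Hpd without RE liver 2 or WT liver 1 (at most 0.129) and that for Kynu without RE liver 0 or WT liver 0 (at most 0.0768). Fah and Cbs were lost without RE liver 1, RE liver 2 or WT liver 2, and Got1 without those or WT liver 0, with adjusted p of at most 0.193, 0.0872 and 0.268, while Oat, Bhmt, Gpt, Aldh4a1, Slc25a15, Hgd and Bckdhb held.

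**Figure D5:**
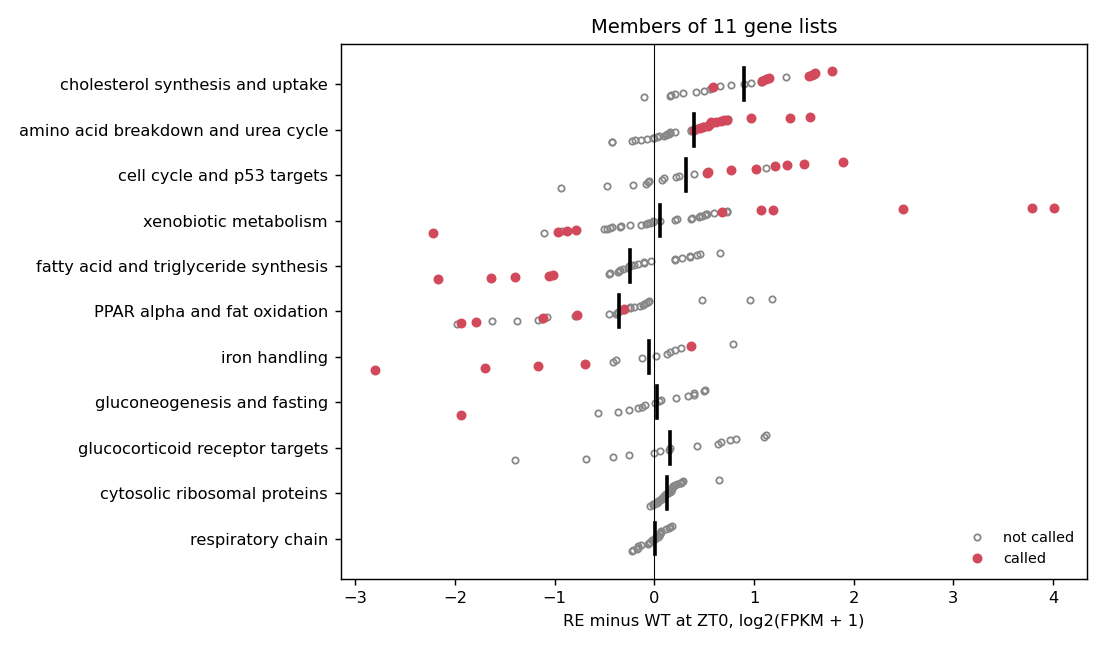
RE minus WT at ZT0 in log2(FPKM + 1) for each tested member of 11 gene lists, with filled points for called genes, open points for the others and a bar at the list's median. Cholesterol synthesis and amino acid breakdown lie mostly right of 0 with medians of 0.90 and 0.40, the fat oxidation genes mostly left with a median of -0.35, and ribosomal proteins and the respiratory chain lie close to 0.

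Genes of drug metabolism were called in both directions. Of 39 tested genes 6 were called higher and 4 lower, beside 4.56% and 4.82% of all tested genes, with a median of 0.05. Beside Cyp2b10, Cyp2c55 and Gstm3, described above, Cyp2c29 rose by 1.07 ± 0.32 (adjusted p = 0.0254), Sult1d1 by 1.19 ± 0.28 (adjusted p = 0.00446) and Gstm1 by 0.68 ± 0.20 (adjusted p = 0.0189). On the lower side Gsta2, a glutathione transferase, was at 37.6, 27.4 and 30.6 FPKM in WT and 2.93, 4.38 and 15.2 in RE and fell by 2.22 ± 0.46 (adjusted p = 0.00107). Gsta3 fell by 0.88 ± 0.25 (adjusted p = 0.017) and Ugt1a1, which conjugates bilirubin, by 0.78 ± 0.22 (adjusted p = 0.016). Nr1i3, which encodes the receptor CAR, was at 44.7, 37.7 and 56.3 in WT and 21.6, 18.3 and 30.5 in RE and fell by 0.96 ± 0.28 (adjusted p = 0.0231), while its target Cyp2b10 rose. Alas1, the first enzyme of heme synthesis, ranged widely at 30.8, 73.1 and 49.2 in WT and 59.9, 117 and 34.7 in RE and was not called (0.37, adjusted p = 0.846). Of the 4 lower calls, 1 was left without RE liver 1 or WT liver 2 and 2 without WT liver 0. Gsta2 held throughout, while the adjusted p of Gsta3, Ugt1a1 and Nr1i3 reached 0.119, 0.0924 and 0.13. On the higher side the call for Cyp2c29 was lost without RE liver 0, RE liver 1, WT liver 0 or WT liver 1, and that for Gstm1 without RE liver 1, RE liver 2 or WT liver 2.

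Iron handling had 4 lower and 1 higher call among 14 genes, beside 4.82% and 4.56% of all tested genes, with a median of -0.06. Besides Hamp these were Slc40a1, the iron exporter ferroportin, at 29.8, 38.1 and 44.3 FPKM in WT and 13.0, 12.1 and 25.0 in RE, which fell by 1.17 ± 0.26 (adjusted p = 0.00206). Id1, which like Hamp is induced by bone morphogenetic proteins, was at 17.5, 18.7 and 11.8 in WT and 3.18, 6.12 and 3.49 in RE and fell by 1.70 ± 0.43 (adjusted p = 0.00719), and Smad7, an inhibitor of the same pathway, fell by 0.69 ± 0.23 (adjusted p = 0.0489). Hfe, the gene of hereditary hemochromatosis, rose by 0.37 ± 0.10 (adjusted p = 0.0118). The call for Hfe was lost without RE liver 2 (adjusted p = 0.0824), and that for Smad7 without any 1 of the 6 livers (adjusted p of at most 0.1435). Hamp is also induced in inflammation. Of 21 acute phase genes 2 were called higher, Itih3 (0.97) and C3 (0.50), and 2 lower, Hamp and Saa3 (-1.43). Over all tested genes the shares were 4.56% higher and 4.82% lower. The call for C3 was lost without any 1 liver other than RE liver 0, and that for Saa3 without any 1 other than RE liver 1 and WT liver 1.

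Glucose genes were called in both directions. Of 17 genes of glycogen and glucose entry 3 were called lower and 2 higher, beside 4.82% and 4.56% of all tested genes, with 9 differences below 0 and 8 above. Slc2a2, the liver glucose transporter, was at 71.8, 80.9 and 106 FPKM in WT and 58.8, 28.3 and 24.7 in RE and fell by 1.27 ± 0.25 (adjusted p = 0.000494). Gys2, liver glycogen synthase and a direct clock target, was at 44.7, 45.2 and 50.9 in WT and 35.8, 28.2 and 24.6 in RE and fell by 0.67 ± 0.14 (adjusted p = 0.00159), less than the -1.40 of the other times (adjusted p of the departure = 0.00423). Gbe1, the branching enzyme, fell by 0.72 ± 0.19 (adjusted p = 0.0103). Gckr, a regulator of hepatic glucose metabolism, was at 57.8, 59.0 and 58.5 in WT and 85.1, 97.2 and 108 in RE and rose by 0.71 ± 0.12 (adjusted p = 4.99e-05), and Gyg, glycogenin, rose by 0.70 ± 0.17 (adjusted p = 0.00448). The call for Gbe1 was lost without RE liver 1, RE liver 2 or WT liver 2 (adjusted p of at most 0.0873). Of 16 genes of gluconeogenesis and fasting, Fgf21 alone was called. Pck1, which makes phosphoenolpyruvate, was at 311, 442 and 183 in WT and 160.4, 239 and 388 in RE, and G6pc, which releases glucose, at 152, 257 and 123 in WT and 116, 101 and 123 in RE, with overlapping groups and no call (adjusted p = 0.812 and 0.428).

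Genes of the MCM helicase, which licenses DNA replication, rose from low levels. Of 20 cell cycle genes tested, 8 were called higher and none lower, beside 4.56% and 4.82% of all tested genes, with a median of 0.32. They were 6 subunits of the helicase together with Wee1 and Ccnd3, a cyclin. Mcm6 was at 2.10, 1.55 and 0.952 FPKM in WT and 5.82, 7.95 and 12.0 in RE and rose by 1.89 ± 0.39 (adjusted p = 0.000935). Mcm2 was at 0.820, 0.704 and 0.860 in WT and 2.96, 3.05 and 4.68 in RE and rose by 1.33 ± 0.25 (adjusted p = 0.000236), and for it the rise at ZT0 was larger than at the other times (0.32, adjusted p = 0.0265). Mcm3 (1.21), Mcm4 (1.02), Mcm5 (1.5) and Mcm7 (0.53) were called too. Wee1, a kinase that delays mitosis and is driven by the clock through E-boxes, was at 0.916, 0.521 and 1.03 in WT and 2.40, 1.47 and 2.46 in RE, with a rise of 0.77 ± 0.19 at ZT0 and a difference of -1.06 at the other times (adjusted p of the departure = 9.98e-08). Without WT liver 1, 5 were called, and Wee1 was lost (adjusted p = 0.051). Those for Mcm7 and Ccnd3 were lost without RE liver 1, RE liver 2, WT liver 1 or WT liver 2, with adjusted p of at most 0.248 and 0.197.

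Further lists showed few calls, beside 4.56% of all tested genes called higher and 4.82% called lower. Of 15 targets of the glucocorticoid receptor none was called by limma, 4 had an unadjusted p under 0.05, and the median was 0.16. Of 22 genes of the unfolded protein response none was called, 2 had such a p, and the median was 0.30. None of 36 cytosolic ribosomal proteins was called either, with 3 under 0.05 unadjusted and a median of 0.13. The 22 genes of the respiratory chain had no call, 0 under 0.05 unadjusted and a median of 0.00. Among 18 splicing factors 0 were called and 1 had an unadjusted p under 0.05, and among 11 genes of the growth hormone axis both counts were 0. Of 22 genes of bile acid synthesis and transport only Abcg5, a sterol exporter, was called (0.86), and the call was lost without WT liver 0 (adjusted p = 0.144) or RE liver 2 (0.28). Cyp7a1, which makes the first committed step from cholesterol to bile acids, was at 9.03, 8.64 and 16.9 FPKM in WT and 14.9, 22.2 and 47.3 in RE and was not called (1.12, adjusted p = 0.207). Of 18 clock output genes 2 were called higher, Wee1 and Slc46a3 (1.16), and Gys2 lower. Mt1, a metallothionein, was at 11.9, 8.05 and 7.78 in WT and 3.30, 7.65 and 149 in RE, so that RE liver 2 was far above the other 5; its difference changed from 0.82 to -0.72 without that liver and was not called in either case.

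Markers of other cell types had some calls, beside 4.56% of all tested genes called higher and 4.82% called lower. Of 10 Kupffer cell genes, markers of the resident macrophages, Vsig4 alone was called (-0.97, adjusted p = 0.0195; the call was lost without any 1 liver other than RE liver 2 and WT liver 1), and all 10 differences were below 0 with a median of -0.68. The summed level of the 10 was 164 to 291 FPKM in WT and 87.7 to 187 in RE. Of 6 bile duct genes Krt19, Krt7 and Epcam were called lower and Sox9 and Spp1 higher. Epcam was at 8.72, 1.34 and 0.465 in WT and 0.383, 0.254 and 0.558 in RE, and Krt19 at 16.1, 2.67 and 3.88 in WT and 2.45, 1.22 and 0.852 in RE; WT liver 0 was highest in both, the gut expresses both, and both calls were lost without it (adjusted p = 0.366 and 0.0546). Epcam and Krt7 reached the floor for testing in WT at ZT0 alone. Krt7 was called without WT liver 0, and its call was lost without RE liver 0, RE liver 1, WT liver 1 or WT liver 2. Sox9 held without any 1 liver, while the call for Spp1 (adjusted p = 0.0494) was lost without RE liver 0, RE liver 1, WT liver 0 or WT liver 2. Endothelial cells with 8 genes and stellate cells with 9 had no call, with 1 and 0 genes under 0.05 unadjusted. Of 12 pericentral genes Oat, Gulo (0.60) and Lect2 (0.86) were called higher, with 6 of the 12 differences below 0 and 6 above. Of 10 periportal genes Hsd17b13 (-0.72) was called lower, with 6 of the 10 differences below 0 and 4 above. That call was lost without RE liver 0 or RE liver 1 (adjusted p of at most 0.0787). The nuclear RNAs Malat1 and Neat1, named after their values were seen, were higher in RE, with Malat1 at 15.7, 22.3 and 27.3 in WT and 48.9, 147 and 33.7 in RE (1.51, adjusted p = 0.00126, or 0.0504 without RE liver 1). The call for Neat1 (1.57) was lost without WT liver 0 (adjusted p = 0.0683). The part of cell makeup and of nuclear RNA in the other differences was not tested.

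KO livers at ZT0 were measured beside the same WT livers, so the differences share their controls. KO minus WT was called in 946 genes (8.65%), 493 lower (4.51%) and 453 higher (4.14%), and in 543 genes without WT liver 0 or 592 without KO liver 2. Nat8 gave -4.96 in KO minus WT and -4.98 in RE minus WT, Lpl 3.63 and 3.67, Nr1d1 -1.79 and -2.04, and Lss 1.40 and 1.79. Set against each other directly, RE and KO livers differed in none of the 10932 genes by limma (0%), although 826 had an unadjusted p under 0.05. Fgfrl1, a decoy receptor for fibroblast growth factors, was the gene called with a pseudocount of 0.1 or a floor of 5 FPKM, at 4.64 FPKM on average in RE and 8.28 in KO. With no floor it was called together with 5 genes that averaged under 1 FPKM in both groups, and without RE liver 0 Ormdl1 was called instead. Among the genes named above, Pck1 averaged 262 FPKM in RE and 737 in KO, Hamp 527 and 1414, Per1 1.32 and 4.38, and Scd1 766 and 1904, none of them called. Failing that test does not show that RE and KO livers are alike at this hour.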

How the data were processed

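RNA of whole mouse livers was sequenced in 54 libraries, 3 for each of 3 genotypes at 6 times. The authors deposited FPKM per gene. Reads were aligned with TopHat to mm10, per the submitters' processing notes; its version, the annotation, and the program behind the FPKM values were not given in the sources used here. Columns were placed in groups by their names, and their numbers are not those of the sample titles. The 10932 of 24346 genes that averaged 1 FPKM or more in some group were taken as log2(FPKM + 1), which understates changes of low genes, and fitted with limma 3.58.1 in R 4.3.3 over all 18 groups (36 residual degrees of freedom, empirical Bayes moderation with trend). P-values were adjusted by the Benjamini-Hochberg method over all tested genes. The 4 contrasts were RE minus WT at ZT0, the same minus its mean at the other 5 times, KO minus WT and RE minus KO at ZT0. An exact permutation test of 3 against 3 livers cannot go below p = 0.1, so single genes have no such test. Of the 1026 called genes, 45 carry no symbol of their own and are not named.

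Genes are named where they belong to the core clock, are the enzymes Cyp7a1, Pck1, G6pc, Alas1, Cps1, Acaca, Cpt1a and Gys2, are among the 12 largest falls and 12 largest rises of called genes whose groups do not overlap and whose higher group averages at least 5 FPKM, or are up to 4 members with the smallest p in a list; others are said to be chosen after their values were seen, as are Mme, Pltp, Serpine2, Ces1e and Fitm1, further members of lists, and Fgfrl1 and Ormdl1. A few genes are not reported here, and the counts of lists leave them out. Members and lists were chosen with earlier results of these data known. The analysis was tested on simulated data that gave all groups the same spread for a gene. That test therefore does not bear on the larger spread among RE livers. Alternatives were other pseudocounts, floors, scalings, sets of libraries sharing the spread, and leaving out each liver.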

Additional observations from a re-analysis of the deposited data

Results flagged for a closer look

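For 37 of 160 named genes RE minus WT at ZT0 departed from its mean over the other 5 times. The test was limma's, of the difference itself (adjusted p under 0.05 over 10932 genes), and 2.69% of all tested genes passed it. Many named genes were picked by the size of their difference. Others, such as Ndrg1, Acmsd, Mpv17l, Lgals2, Lypd8, Srebf1 and Nampt, were named after their values were seen. The 37 are therefore a description and no result about the named genes as a set. The values here are that departure in log2(FPKM + 1), negative where RE is lower relative to WT at ZT0 than at the other times. The departure was negative for 16 genes and positive for 21, beside 1.7% and 0.988% of all tested genes.

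Of the negative ones, 8 are epithelial transcripts found mainly in the gut or bile duct, all highest in WT liver 0 at ZT0. They were Reg3b at -3.52, Zg16 at -3.23, Prap1 at -3.15, Rbp2 at -3.10, Defa24 at -2.98, Lgals2 at -2.98, Lypd8 at -2.80 and Krt19 at -1.53. The activators and the D-box repressor of the clock were in the same direction, with Nfil3 at -1.52, Arntl at -1.26 and Npas2 at -1.25. Among metabolic and other genes Elovl3 was at -2.37, Clpx at -1.70, Insig2 at -1.61, Ndrg1, a stress-responsive gene, at -1.37 and Loxl4 at -0.80. Of the 8 epithelial genes, Reg3b, Prap1, Rbp2 and Defa24 reached the floor for testing in WT at ZT0 alone. The floor largely fixed the departures of Reg3b, Prap1, Rbp2 and Defa24, which are therefore no support for a difference. For Lypd8 and Lgals2, which are in no list, the floor was not checked, so their departures are no support either. The part of WT liver 0 in the departures of the 8 genes was not tested.

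Of the positive ones, 10 are core clock genes. Dbp was at 3.53, Tef at 2.25, Ciart at 2.07, Per3 at 1.97 and Per2 at 1.48. Bhlhe40 was at 1.41, Nr1d2 at 1.35, Cry2 at 0.88, Hlf at 0.67 and Bhlhe41 at 0.59. Genes driven by the clock or by feeding followed, with Cyp2a5 at 2.73, Upp2 at 2.48, Wee1 at 1.83, Srebf1, a regulator of fat synthesis, at 1.58, Nampt, which makes NAD, at 0.86 and Gys2 at 0.74. The rest were Acmsd of tryptophan breakdown at 1.37, Mcm2 at 1.01, Mpv17l at 1.01, Gpt at 0.60 and Aldh4a1 at 0.56.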

How the results depend on the processing

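No paired analysis was possible because the columns are numbered 0 to 2 and the sample titles 1 to 3, so that no column carries a replicate number of the labels. RE minus WT was called lower in 338 genes with a floor of 5 FPKM, when fewer genes were tested. With the spread taken from the livers compared alone, 124 genes were lower and 119 higher, and KO minus WT was called in 588, with fewer samples behind each spread. On leaving out single livers the calls ran from 351 to 585 lower and from 318 to 511 higher, from 543 to 762 for KO minus WT, from 0 to 1 for RE minus KO and from 205 to 291 for the departure of ZT0 from the other times. RE minus KO gave 1 call with a pseudocount of 0.1, 6 with no floor and 1 with a floor of 5 FPKM; the cause was not tested. Of 133 named genes that were called, 132 were still called with libraries shifted to a common median, 127 with quantile normalization, 128 with a pseudocount of 0.1, 119 with no floor, 130 with the spread of 2 genotypes, 56 with that of the 6 livers alone and 99 to 116 without 1 liver.

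No named gene that was called turned its direction under any alternative run. Among named genes that were not called, these changed sign, and the cause was not tested. With quantile normalization Bhlhe41 was at 0.0297. On leaving out single livers, Clock ran from -0.145 to 0.246, Rora ran from -0.278 to 0.0582, Pck1 ran from -0.591 to 0.0551. In the same repeats Alas1 ran from -0.0745 to 0.786, Elovl3 ran from -0.711 to 0.487, Insig2 ran from -0.0424 to 0.395. Likewise Mt1 ran from -0.724 to 1.84, Mt2 ran from -0.445 to 1.23, Upp2 ran from -0.109 to 0.669, Cyp2a5 ran from -0.163 to 0.151. The sign of Elovl3, Mt1, Mt2 and Upp2 changed without RE liver 2. The values hold no counts, so the part that depth plays in low genes such as Per3, Ciart and Bhlhe41 is unknown.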

Other observations

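Lists not described above had few members called in RE minus WT at ZT0. Over all tested genes 4.82% were called lower and 4.56% higher. Of 21 heat shock and cytosolic chaperone genes, Hspb1 alone was called, with a list median of 0.22. Of 14 genes of the integrated stress response, Fgf21 and Asns, asparagine synthetase (-0.79), were called lower, with a median of -0.20; the call for Asns was lost without any 1 liver other than RE liver 2 and WT liver 2. Of 17 targets of NRF2, the regulator of antioxidant genes, G6pdx (-1.15), which supplies NADPH, and Gsta2 were called lower, with a median of -0.22, and 14 of 17 differences were below 0. Of 18 genes of the actin and serum response factor pathway, Tpm4 (-0.61) was called lower, a call lost without RE liver 1 or WT liver 2. Of 21 ribosome biogenesis genes, Nhp2 (0.73) was called higher, likewise lost without RE liver 1 or WT liver 2.

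Liver genes biased to males, of which 16 had usable values, had Cspg5 (-0.68) and Susd4 (-1.07) called lower and a median of -0.52, and neither was called without WT liver 0 (adjusted p = 0.163 and 0.0769). Cspg5, which reached the floor for testing in WT at ZT0 alone, was also lost without RE liver 0 or RE liver 1, and Susd4 without RE liver 2 or WT liver 1. Of 7 tested genes biased to females none was called by limma, with 3 under 0.05 unadjusted and a median of -0.34. The 6 red cell genes had a median of -2.09, or -1.66 without WT liver 0. Of 5 lymphocyte genes Nkg7 (-0.93) was called lower, a call lost without any 1 liver other than RE liver 1 and WT liver 1, and of 2 tested pancreas genes Cela1 (1.45) was called higher.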
